A study of Arabidopsis thaliana with 36 samples.

Results

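The genes described here are 55 Arabidopsis thaliana genes for bringing proteins into the endoplasmic reticulum (ER), for the coat of Golgi vesicles, and for protein import into chloroplasts. They were every gene whose description in the authors' deposited table for the hypocotyl at 180 min held one of a fixed set of words, among 20957 genes in that table and 33602 in the count table. The word "coatomer" found 9 genes, "Sec61" found 7, "translocon" 16, "signal recognition particle" 12, "signal peptidase" 8 and "oligosaccharyltransferase" 3, while "vesicle coat" found 0. RNA was sequenced from hypocotyls and cotyledons dissected from Col-0 wild-type seedlings grown for 5 days in long days (16 h of light) at 21 °C. On day 6, at 2 h after lights on, seedlings were moved to a low ratio of red to far-red light (low R/FR, the signal of shade by neighbouring leaves) or stayed at a high ratio (high R/FR). The labels name the high R/FR samples white light and the low R/FR samples supplemental far-red light. Low R/FR groups were sampled after 15, 45, 90 and 180 min, and high R/FR groups at 0, 15, 45, 90 and 180 min. This made 18 groups with 2 libraries apiece, and 50 seedlings went into a library. The labels describe 1 plate per sample and do not say whether the plates were separate experiments, so p-values measure only the spread between these samples, which may be technical.

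A protein that will be secreted, or built into a membrane or the cell wall, enters the ER while it is made. The signal recognition particle (SRP) binds its signal peptide and docks on the SRP receptor, the Sec61 channel lets the chain through, signal peptidase cuts the signal peptide off, and oligosaccharyltransferase adds sugars. COPI, the coat built from coatomer, then carries proteins back from the Golgi to the ER and between Golgi cisternae. Chloroplasts have their own entry gates, the TOC and TIC translocons of the outer and inner envelope, and their own SRP, which delivers light-harvesting proteins to thylakoids.

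Of the 55 genes, 36 belong to the ER and COPI: 9 to SRP and its receptor, 9 to Sec61 and the translocon-associated TRAP proteins, 6 to signal peptidase, 3 to oligosaccharyltransferase and 9 to coatomer. Another 17 belong to chloroplasts, 12 to the TOC and TIC translocons and 5 to the chloroplast SRP, SecE and signal peptidase. The words therefore gathered a set that is only in part secretory. The other two are TOC64-V (AT5G09420), a relative of the TOC64 receptor, and AT1G23470, annotated as a pseudogene. All 55 passed the filter on low counts. Levels below are in CPM, gene counts divided by library size after TMM scaling, which is meant to put libraries on a common scale. The TMM factors were 0.767 to 0.854 in cotyledons and 1.185 to 1.29 in hypocotyls, so levels compared between the organs rest on this scaling.

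Per kilobase of exon, the highest mean level in the ER and COPI set was 74.1 CPM per kb for TRAP alpha AT2G21160, followed by Sec61 beta AT2G45070 with 73.6, OST3/6 AT1G61790 with 55.4, epsilon-COP AT1G30630 with 53.99 and gamma-COP AT4G34450 with 48.8. The lowest were Sec61 beta AT3G60540 with 1.23 CPM per kb and TRAP alpha AT2G16595 with 1.47. In the chloroplast set CAO, the chloroplast SRP43 protein, stood at 207 CPM per kb, and Tic20-I was lowest at 1.096. Sec61 beta and TRAP alpha thus each had a strongly expressed gene and a weak copy.

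Promoter windows are shown for 5 members whose values recur below, as the 250 bases before the RefSeq gene start (assembly TAIR10.1), read 5′ to 3′ on the gene's strand, with motif matches in capitals. Searched on both strands were CACGTG (the G-box, bound in Arabidopsis by phytochrome-interacting factors and other proteins), CACATG (another of their sites), TGACGTG (a core of unfolded protein response elements), CCAATNNNNNNNNNNCACG (ER stress response element I) and GGGCC (the core of site II elements, common in promoters of ribosomal protein genes). Sec61 beta AT3G60540 (chr3:22375917-22376166, minus strand) had 2 ER stress response elements, both on the reverse strand and each overlapping a CACGTG, and 1 GGGCC. Sec61 gamma AT5G50460 (chr5:20552671-20552920, minus strand) had 1 TGACGTG and 1 GGGCC. Epsilon-COP AT1G30630 (chr1:10860323-10860572, minus strand) had 1 CACGTG and 1 GGGCC. The SRP-related gene AT5G61970 (chr5:24888346-24888595, plus strand) had GGGCC once on each strand. Sec61 gamma AT4G24920 (chr4:12820969-12821218, minus strand) had none of these motifs.
AT3G60540: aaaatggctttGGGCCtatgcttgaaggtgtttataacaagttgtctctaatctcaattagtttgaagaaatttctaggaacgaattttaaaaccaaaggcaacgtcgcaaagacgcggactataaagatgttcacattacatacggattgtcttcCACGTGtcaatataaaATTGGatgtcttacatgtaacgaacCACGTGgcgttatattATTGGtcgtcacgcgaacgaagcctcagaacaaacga
AT5G50460: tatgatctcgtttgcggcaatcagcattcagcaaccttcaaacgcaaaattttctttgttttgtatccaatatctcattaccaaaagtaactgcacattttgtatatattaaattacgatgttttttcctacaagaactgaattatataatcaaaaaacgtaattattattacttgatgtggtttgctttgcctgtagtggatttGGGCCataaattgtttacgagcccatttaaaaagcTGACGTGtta
AT1G30630: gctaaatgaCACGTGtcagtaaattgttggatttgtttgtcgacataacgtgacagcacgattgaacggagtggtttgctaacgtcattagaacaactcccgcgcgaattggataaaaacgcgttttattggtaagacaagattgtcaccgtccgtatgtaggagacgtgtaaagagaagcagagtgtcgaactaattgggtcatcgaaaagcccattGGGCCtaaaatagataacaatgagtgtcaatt
AT5G61970: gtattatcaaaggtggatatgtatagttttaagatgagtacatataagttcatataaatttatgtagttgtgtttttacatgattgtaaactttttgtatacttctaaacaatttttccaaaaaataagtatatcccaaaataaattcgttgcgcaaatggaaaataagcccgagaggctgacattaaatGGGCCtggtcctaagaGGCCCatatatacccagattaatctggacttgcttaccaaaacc
AT4G24920: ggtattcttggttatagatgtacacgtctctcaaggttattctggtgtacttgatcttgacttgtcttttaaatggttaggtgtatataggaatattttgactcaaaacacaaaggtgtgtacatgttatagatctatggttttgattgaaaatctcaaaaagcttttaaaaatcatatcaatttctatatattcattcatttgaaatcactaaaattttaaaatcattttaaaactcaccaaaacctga

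Across the 36 ER and COPI promoters, GGGCC was in 16 (44.4%), against 19.2% of the 20002 tested genes with a window, and in 5 of 17 chloroplast members (29.4%). It was in 6 of 9 SRP, 3 of 9 Sec61 and TRAP, 3 of 6 signal peptidase, 0 of 3 oligosaccharyltransferase and 4 of 9 coatomer promoters. CACGTG was in 2 of 36 (5.56%), against 7.23% of all genes. TGACGTG was in 2 of 36 (5.56%), against 3.25% of all genes, and the ER stress response element in 1 of 36 (2.78%), against 0.86%. CACATG was in 6 of 36 (16.7%), against 11.01%. By comparison, 7 of 26 tested ER chaperone and unfolded protein response genes (26.9%) had CACGTG and 5 of 26 (19.2%) had the ER stress response element. In the same 26 genes GGGCC was in 8 (30.8%), TGACGTG in 5 (19.2%) and CACATG in 1 (3.85%). These are letters found in a window, not measured binding sites.

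Hypocotyl libraries held 23560273 to 34231167 reads counted to genes, and cotyledon libraries 24897594 to 45115165. Organ labels held against 5 photosynthesis markers (RBCS1A, LHCB1.1, LHCB1.3, RCA and PSBO1), whose sum in high R/FR was 28570 to 35330 CPM in hypocotyls and 97320 to 118300 CPM in cotyledons. The summed root markers stayed at or below 0.887 CPM in high R/FR. The 5 shoot apex markers summed to 0.916 to 1.79 CPM in high R/FR hypocotyls and 0 to 0.145 CPM in high R/FR cotyledons. Of these only STM passed the filter, and it was higher in hypocotyls (log2 7.18). The part of shoot apex tissue in differences between the organs was not tested. Between the 2 libraries of a group, the chi-square per degree of freedom of gene counts was 3.76 to 20.8, so no pair matched within sampling noise. The highest values were those of the hypocotyl high R/FR 15 min group and the cotyledon low R/FR 45 min group. Calls below use edgeR's quasi-likelihood test with Benjamini-Hochberg adjustment over all 20126 genes tested, and a called gene has an adjusted p under 0.05. Log2 changes are low over high R/FR, with their standard errors.

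In the hypocotyl many ER and COPI genes were higher in low R/FR than in high R/FR at 90 min. Among the 36, 15 rose and 1 fell, and their median log2 change was 0.23, against -0.02 over all genes tested. Of all 55 members 17 rose and 3 fell, where 37.6% of all genes were called (19.1% higher and 18.5% lower). The summed level of the 36 genes at 90 min was 1758 and 1709 CPM in low R/FR hypocotyls, against 1473 and 1445 CPM in high R/FR hypocotyls. The 2 groups did not overlap. RNA came from whole organs of pooled seedlings, so more or fewer cells of a type and more or less RNA per cell cannot be told apart. Fewer members were called at 90 min in every fit that left out 1 library, the fewest without hypocotyl low R/FR replicate 1. Calls over all genes dropped in these fits as well. With no filter on low counts the members split into 15 higher and 6 lower, where 7389 of 25554 genes were called. In the authors' deposited table, 12 of the 36 were higher and 1 lower at 90 min at an adjusted p under 0.05. The share of all genes past that threshold was not counted in the authors' tables, here or at other times.

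The genes were picked by words in their descriptions, but the set was proposed with the low over high R/FR change in the hypocotyl at 180 min in view. The values of the set in that comparison are therefore a description, from which nothing is tested or inferred. Of the 36 ER and COPI genes 31 passed the threshold as higher and 0 as lower, with a median log2 change of 1.11 against -0.04 over all genes, and 63.8% of all genes were called in that comparison (31.2% higher and 32.6% lower). Their summed level was 3624 and 3614 CPM in low R/FR hypocotyls, against 1502 and 1480 CPM in high R/FR hypocotyls. In 31 of the 36, the mean level was highest in low R/FR hypocotyls at 180 min among all 18 groups. Beside this, the sum of the 5 photosynthesis markers was 20790 and 20270 CPM in low R/FR hypocotyls at 180 min, against 35330 and 32250 CPM in high R/FR hypocotyls, and all 5 were lower. Their part in the result was not tested.

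**Figure D1:**
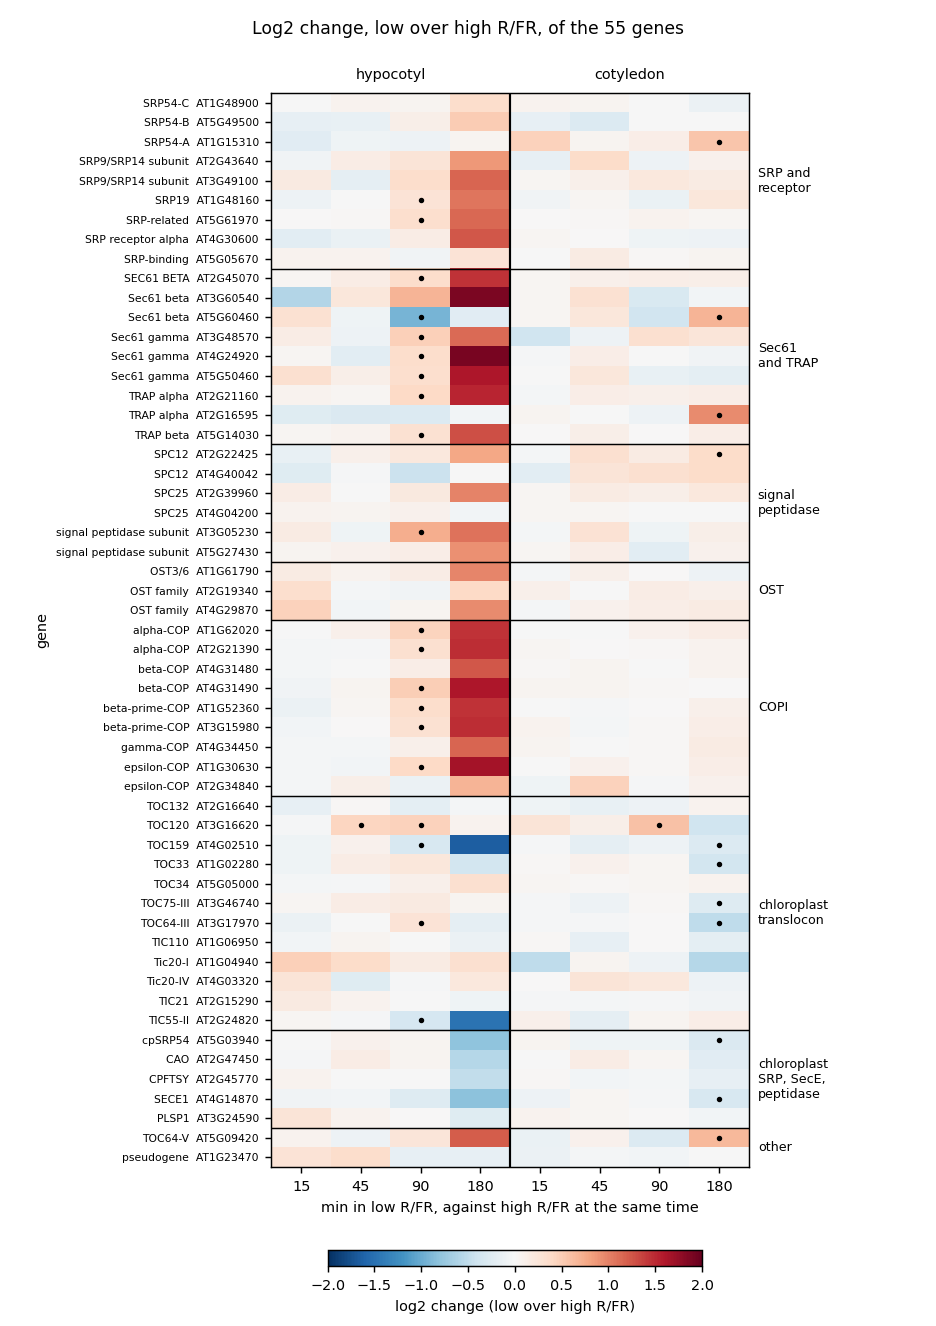
Heat map of the log2 change (low over high R/FR) of the 55 genes, in rows by role, at 15, 45, 90 and 180 min, with the hypocotyl columns left of the cotyledon columns. Black dots mark an adjusted p under 0.05 and are not drawn for the hypocotyl at 180 min. In the hypocotyl at 90 min 17 genes rose and 3 fell (37.6% of all genes were called), and in the cotyledon at 180 min 5 rose and 6 fell (19.5% of all genes).

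In coatomer, 6 of the 9 genes rose at 90 min, where 19.1% of all genes rose. The other 3 were not called, and the median log2 change of the 9 was 0.32. Summed over the 9 genes, low R/FR hypocotyls had 964 and 924 CPM at 90 min, against 773 and 787 CPM in high R/FR hypocotyls. Beta-COP AT4G31490, part of the inner coat layer, had 101 and 99.0 CPM in low R/FR hypocotyls at 90 min, against 70.0 and 72.2 CPM in high R/FR hypocotyls. Both low R/FR libraries lay above both high R/FR libraries, and the log2 change was 0.49 ± 0.07 (SE; adjusted p = 6.6e-07, edgeR quasi-likelihood). Its levels at 45 min were 65.2 and 65.3 CPM in low R/FR and 62.6 and 62.4 CPM in high R/FR hypocotyls, which was not called. AT4G31490 (chr4:15268533-15273147) lies beside the other beta-COP gene AT4G31480 (chr4:15263154-15267847), and their coding sequences are 96.5% identical, so how reads were split between them is uncertain. AT4G31480 had 129 and 120 CPM in low R/FR at 90 min, against 115 and 114 CPM in high R/FR, with a log2 change of 0.13 ± 0.08 that was not called.

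The outer coat layer is built of alpha-, beta-prime- and epsilon-COP. Alpha-COP AT1G62020 had 88.4 and 80.8 CPM in low R/FR hypocotyls at 90 min, against 63.0 and 60.9 CPM in high R/FR hypocotyls (log2 0.45 ± 0.08, adjusted p = 1.8e-05, edgeR). Epsilon-COP AT1G30630 had 82.6 and 82.4 CPM in low R/FR, against 65.5 and 60.2 CPM in high R/FR (log2 0.39 ± 0.07, adjusted p = 5.2e-05, edgeR). In each of these genes the 2 light groups were separate. The other alpha-COP, AT2G21390, and both beta-prime-COP genes, AT1G52360 and AT3G15980, also rose, by log2 0.32, 0.36 and 0.30. Gamma-COP AT4G34450, of the inner layer, had 216 and 206 CPM in low R/FR, against 199 and 194 CPM in high R/FR, a change of 0.10 ± 0.06 that was not called. At 180 min all 9 coatomer genes were higher in low R/FR, by log2 0.68 to 1.66, and their sum was 2122 and 2069 CPM in low R/FR hypocotyls, against 807 and 797 CPM in high R/FR hypocotyls. Epsilon-COP AT1G30630 then had 205 and 214 CPM in low R/FR, against 65.8 and 66.6 CPM in high R/FR (log2 1.66 ± 0.07), and beta-COP AT4G31490 had 225 and 214 CPM, against 73.5 and 68.9 CPM (log2 1.62 ± 0.07).

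**Figure D2:**
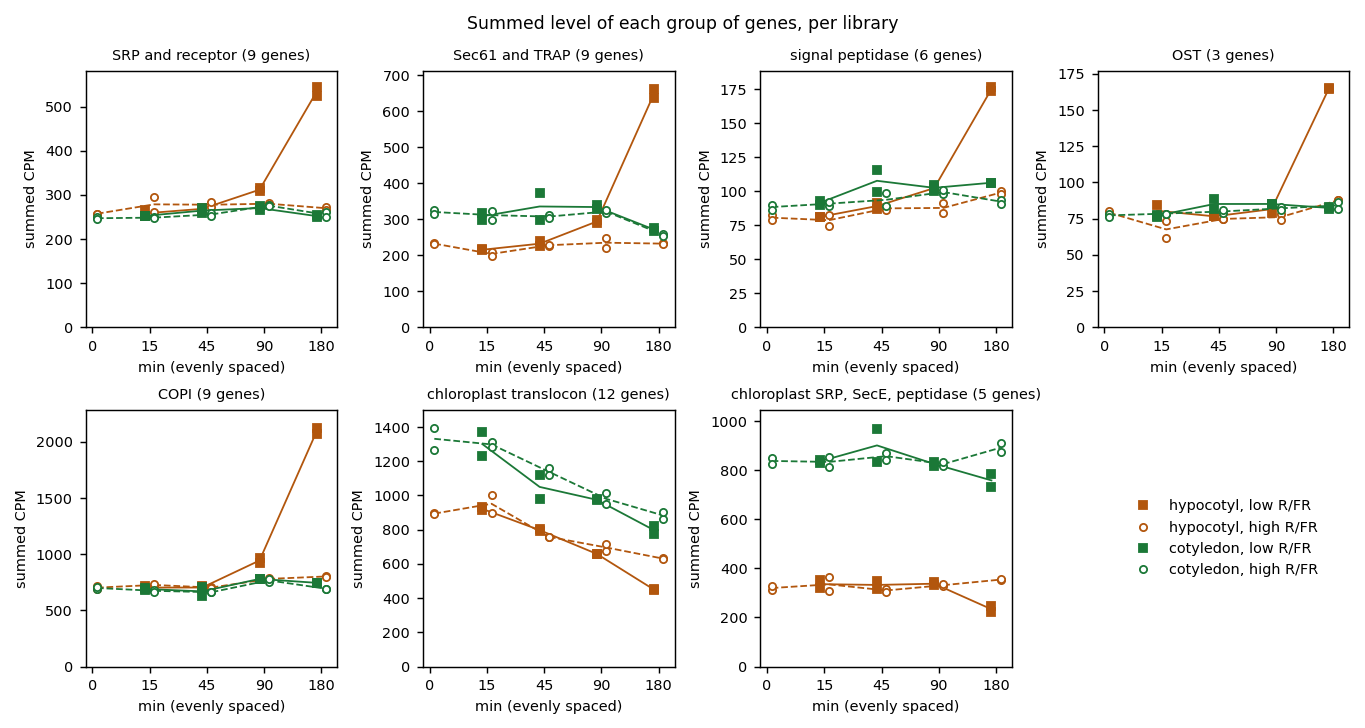
Summed CPM of each of the 7 role groups with 3 or more genes in every library, by organ and time (evenly spaced), for low and high R/FR. In hypocotyls at 180 min the 9 coatomer genes summed to 2122 and 2069 CPM in low R/FR, against 807 and 797 CPM in high R/FR.

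Of the 9 Sec61 and TRAP genes, 6 rose and 1 fell in the hypocotyl at 90 min, where 19.1% of all genes rose and 18.5% fell. The median log2 change of the 9 was 0.35. Sec61 beta and gamma are the small subunits of the channel, and TRAP proteins sit beside it. TRAP alpha AT2G21160 had 95.0 and 92.0 CPM in low R/FR hypocotyls at 90 min, against 72.4 and 69.6 CPM in high R/FR hypocotyls (log2 0.40 ± 0.08, adjusted p = 0.00015, edgeR). All 3 Sec61 gamma genes rose, AT3G48570 by log2 0.48, AT4G24920 by 0.35 and AT5G50460 by 0.34, as did Sec61 beta AT2G45070 by 0.35 and TRAP beta AT5G14030 by 0.30. For Sec61 beta AT2G45070 the margin between groups was small, with 63.4 and 53.1 CPM in low R/FR and 51.7 and 39.4 CPM in high R/FR.

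The gene that fell was Sec61 beta AT5G60460, a divergent copy with 68.3% coding identity to AT2G45070. It had 3.737 and 3.366 CPM in low R/FR hypocotyls at 90 min, against 7.172 and 6.297 CPM in high R/FR hypocotyls (log2 -0.92 ± 0.17, adjusted p = 7.7e-05, edgeR). Both low R/FR libraries were well below both high R/FR libraries. It was the single ER and COPI gene to fall at this time, and it stands outside the rule for named genes. At 180 min its values were 4.14 and 4.53 CPM in low R/FR and 5.68 and 4.55 CPM in high R/FR hypocotyls. The light groups nearly touched, and the change was not called (log2 -0.23 ± 0.17).

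At 180 min Sec61 gamma AT4G24920 had the highest change of all members (log2 1.90 ± 0.10). It had 110 and 115 CPM in low R/FR hypocotyls, against 29.5 and 30.6 CPM in high R/FR hypocotyls. In high R/FR hypocotyls this gene kept between 24.08 and 33.99 CPM at all 5 times. Sec61 beta AT3G60540 came next at log2 1.88 ± 0.37, but from few reads. It had 42 and 48 counts in the low R/FR libraries, against 7 and 17 counts in the high R/FR libraries. Sec61 gamma AT5G50460 had 72.4 and 83.3 CPM in low R/FR, against 24.52 and 26.01 CPM in high R/FR (log2 1.62 ± 0.10).

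**Figure D3:**
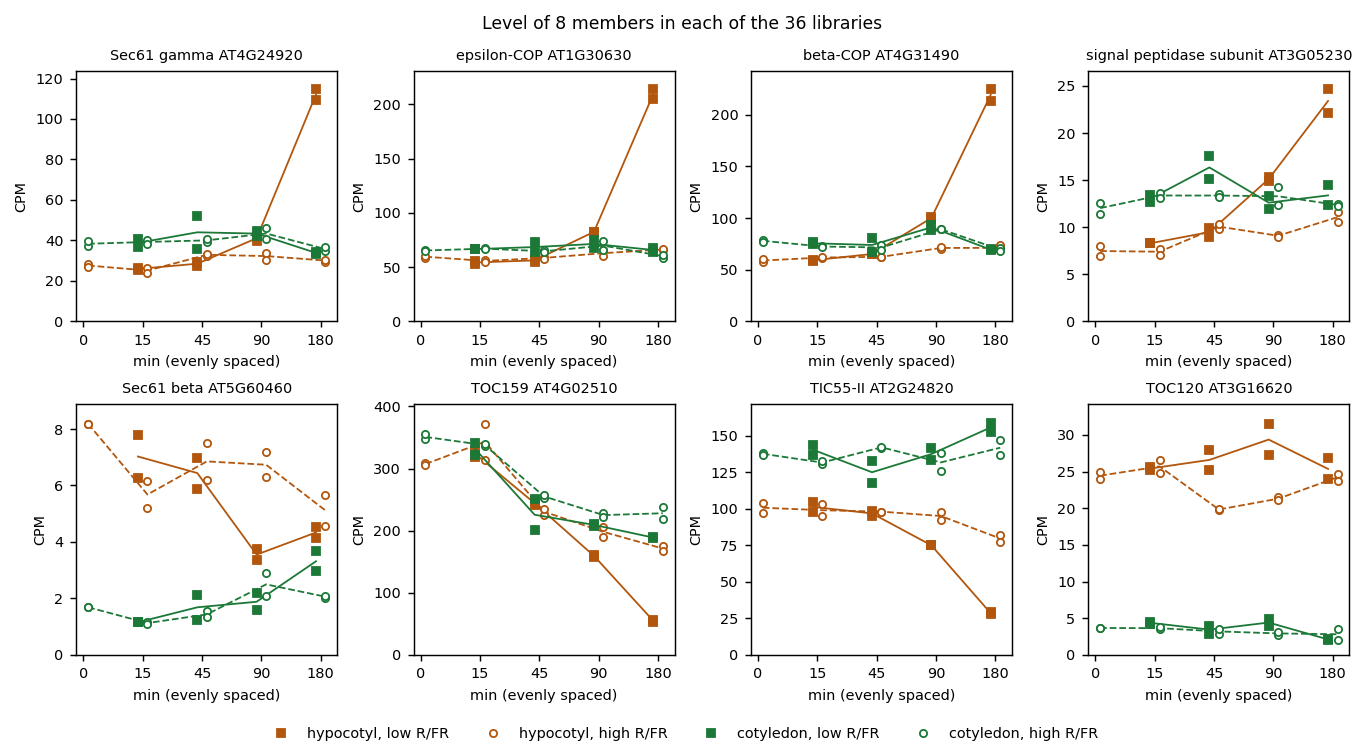
Level in CPM of 8 members in every library, by organ and time (evenly spaced), for low and high R/FR: Sec61 gamma AT4G24920, epsilon-COP AT1G30630, beta-COP AT4G31490, signal peptidase subunit AT3G05230, Sec61 beta AT5G60460, TOC159, TIC55-II and TOC120. Sec61 gamma reached 110 and 115 CPM in low R/FR hypocotyls at 180 min, while TOC159 had 56.0 and 53.4 CPM there, against 175 and 167 CPM in high R/FR.

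Of the 9 SRP genes 2 rose at 90 min and 7 were not called, a share near the 19.1% of all genes that rose. The median log2 change of the 9 was 0.15. The SRP-related gene AT5G61970 had 40.4 and 38.1 CPM in low R/FR hypocotyls, against 31.9 and 30.1 CPM in high R/FR hypocotyls (log2 0.34 ± 0.08, adjusted p = 0.0013, edgeR). SRP19 (AT1G48160), which helps assemble the particle, had 21.3 and 19.6 CPM, against 18.1 and 15.8 CPM (log2 0.27 ± 0.10, adjusted p = 0.04, edgeR). In both genes the low R/FR libraries lay above the high R/FR ones. The SRP receptor alpha subunit AT4G30600, the docking protein and the most abundant gene of the group, had 153 and 152 CPM in low R/FR, against 137 and 138 CPM in high R/FR at 90 min, a log2 change of 0.15 ± 0.08 that was not called. At 180 min its values were 283 and 302 CPM in low R/FR hypocotyls and 124 and 123 CPM in high R/FR hypocotyls (log2 1.24 ± 0.08). SRP54-C (AT1G48900), the main gene for the subunit that binds signal peptides, was at 56.5 and 56.9 CPM in low R/FR and 45.8 and 43.4 CPM in high R/FR hypocotyls at 180 min, a log2 change of 0.35 ± 0.07. The proteins of the particle thus spanned log2 0.05 (SRP54-A) to 1.17 (the SRP9/SRP14 subunit gene AT3G49100) at that time.

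Signal peptidase had 1 of 6 genes called at 90 min, as higher, a share near the 19.1% of all genes that rose. The called gene had the smallest p of all members in that comparison. This subunit gene, AT3G05230, had 14.9 and 15.3 CPM in low R/FR hypocotyls, against 9.21 and 8.98 CPM in high R/FR hypocotyls (log2 0.73 ± 0.10, adjusted p = 6e-07, edgeR). The low R/FR libraries were clearly above the high R/FR ones. Its copy AT5G27430, with 86.5% coding identity, had 14.9 and 16.1 CPM in low R/FR, against 14.4 and 13.9 CPM in high R/FR, which was not called (log2 0.13 ± 0.10). At 180 min both were higher in low R/FR, by log2 1.08 ± 0.10 for AT3G05230 and 0.91 ± 0.10 for AT5G27430. The main genes for the small subunits, SPC12 AT2G22425 and SPC25 AT2G39960, were not called at 90 min (log2 0.21 and 0.19) and were higher by log2 0.78 and 0.99 at 180 min.

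The 3 oligosaccharyltransferase genes had a median log2 change of 0.05 at 90 min and were not called by edgeR. OST3/6 AT1G61790, an oxidoreductase subunit of the enzyme, had 53.3 and 54.8 CPM in low R/FR hypocotyls, against 50.6 and 46.8 CPM in high R/FR hypocotyls. The groups did not overlap, with a log2 change of 0.15 ± 0.07. At 180 min it had 119 and 107 CPM, against 58.1 and 57.0 CPM (log2 0.97 ± 0.07), and AT4G29870 and AT2G19340, both annotated to the enzyme's family, differed by log2 0.94 and 0.40.

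The earlier times had few calls among the members. At 15 min, edgeR called 0 of 55 in hypocotyls, where 0.179% of all genes were called, and 0 in cotyledons, where 0.219% were called. DESeq2 called 0 in both, and 7 and 2 members had an unadjusted p under 0.05. At 45 min 1 member was called in hypocotyls (3.31% of all genes), namely TOC120 (2.09% of all genes were higher), and 0 in cotyledons (3.62% of all genes) by edgeR and by DESeq2, with 6 at an unadjusted p under 0.05. At 90 min TOC120 alone was called in cotyledons, as higher (10.8% of all genes, 4.41% higher). Without hypocotyl high R/FR replicate 1 at 15 min there were 4 calls among the members (456 of 20389 genes tested), and without cotyledon low R/FR replicate 1 at 45 min there were 8 (2117 of 20393 genes tested), 5 higher and 3 lower. The first of these fits left hypocotyl high R/FR replicate 2, which had 39 non-unique alignments per 100 gene counts, against 9.62 in replicate 1. It also had 2.89% of reads in no gene, and both values were the highest of any library. Hypocotyl high R/FR replicate 2 was used in that fit and in the fit with all libraries. Its part in the calls of either was not tested. In the authors' deposited table, 3 ER and COPI genes and 1 chloroplast gene were higher in hypocotyls at 15 min, and 1 ER and COPI gene in cotyledons at 45 min.

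The response at 90 min was set against that of the cotyledons by an interaction term. The log2 change was larger in hypocotyls than in cotyledons for 8 members and smaller for 1, where 21.4% of all genes were called (12.2% larger and 9.12% smaller). Over all members the share called was not above that of all genes. The 8 were all ER and COPI genes: the signal peptidase subunit AT3G05230 (difference of log2 changes 0.81 ± 0.14, adjusted p = 6.7e-05, edgeR), Sec61 gamma AT5G50460 (0.49 ± 0.15) and 6 coatomer genes, beta-COP AT4G31490 first among them (0.46 ± 0.10, adjusted p = 0.00049, edgeR). The median difference over the 36 genes was 0.19, against 0.01 over all genes. In cotyledons at 90 min AT3G05230 had 11.9 and 13.3 CPM in low R/FR and 12.3 and 14.3 CPM in high R/FR, and the groups overlapped. Beta-COP AT4G31490 had 88.6 and 93.4 CPM in low R/FR and 89.1 and 89.3 CPM in high R/FR cotyledons, which overlapped too. TIC55-II was the 1 member with a lower response in hypocotyls (difference -0.40 ± 0.10). RLE scaling gave 6 higher and 2 lower in place of 8 and 1, where 4346 of 20126 genes were called. With no filter the split was 3 and 2, where 4153 of 25554 genes were called. The count was lower in every fit that left out 1 library, and so was the count over all genes. It dropped most without either hypocotyl library of either light, cotyledon low R/FR replicate 2 or cotyledon high R/FR replicate 2. Epsilon-COP AT1G30630 lost its call in 5 of the 8 fits that left out 1 library. At 15 and 45 min edgeR called 0 members for a difference between organs (0.0149% and 0.696% of all genes), DESeq2 0 at both times, and 5 and 4 had an unadjusted p under 0.05.

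In the chloroplast set 2 of 17 genes rose and 2 fell in hypocotyls at 90 min, where 19.1% of all genes rose and 18.5% fell. The median log2 change of the 17 was 0.01. TOC159 (AT4G02510), the main receptor for precursors of photosynthetic proteins, had 161 and 158 CPM in low R/FR hypocotyls, against 190 and 206 CPM in high R/FR hypocotyls (log2 -0.31 ± 0.08, adjusted p = 0.0025, edgeR). TIC55-II (AT2G24820), a Rieske protein of the inner envelope, had 75.0 and 75.1 CPM in low R/FR, against 97.6 and 92.6 CPM in high R/FR (log2 -0.34 ± 0.07, adjusted p = 0.00021, edgeR). Neither gene's light groups overlapped. TOC120 (AT3G16620), a related receptor that favours precursors of other plastid proteins, had 27.3 and 31.4 CPM in low R/FR, against 21.5 and 21.1 CPM in high R/FR (log2 0.46 ± 0.11, adjusted p = 0.0011, edgeR). TOC64-III (AT3G17970) rose by log2 0.27 ± 0.09.

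At 180 min the sum of the 17 chloroplast genes was 676 and 690 CPM in low R/FR hypocotyls, against 984 and 987 CPM in high R/FR hypocotyls. Among them 8 genes were lower and 1, TOC34, was higher, where 32.6% of all genes were lower and 31.2% higher. The 2 lowest changes of all members were those of TOC159, with 56.0 and 53.4 CPM in low R/FR, against 175 and 167 CPM in high R/FR (log2 -1.64 ± 0.08), and TIC55-II, with 29.1 and 27.9 CPM, against 82.3 and 77.1 CPM (log2 -1.48 ± 0.07). All 5 genes of the chloroplast SRP, SecE and signal peptidase group were lower as well, with a median log2 change of -0.57. CAO had 130 and 148 CPM in low R/FR, against 207 and 204 CPM in high R/FR, and cpSRP54 had 40.4 and 40.0 CPM, against 68.1 and 72.8 CPM. TOC132 and TOC120, the other receptors of the TOC159 family, had log2 changes of -0.03 ± 0.09 and 0.07 ± 0.11. As a share of the family's level per kb, TOC159 made up 38.6% and 38.7% in low R/FR hypocotyls at 180 min, against 66% and 66.9% in high R/FR hypocotyls. In cotyledons at that time its share was 83.3% and 83.1% in low R/FR and 85.2% and 86.6% in high R/FR. The photosynthesis markers given above were lower in the same low R/FR hypocotyl libraries, and their part in the change of the chloroplast genes was not tested.

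TOC120 was called at the earliest time of any member and in both organs. At 45 min it had 27.99 and 25.2 CPM in low R/FR hypocotyls, against 19.7 and 19.9 CPM in high R/FR hypocotyls (log2 0.42 ± 0.11, adjusted p = 0.025, edgeR). At 90 min it had 3.913 and 4.9 CPM in low R/FR cotyledons, against 2.66 and 3.184 CPM in high R/FR cotyledons (log2 0.58 ± 0.17, adjusted p = 0.021, edgeR). The groups were separate in both. The call at 45 min was lost without any 1 of the 4 libraries, with adjusted p between 0.052 and 0.256. The cotyledon call was lost without high R/FR replicate 1 (adjusted p = 0.195) or low R/FR replicate 2 (0.38), and in a fit on cotyledon libraries alone (0.0643).

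In cotyledons at 180 min, 5 members rose and 6 fell, where 19.5% of all genes were called (8.02% higher and 11.5% lower). The ER and COPI genes had a median log2 change of 0.11, with 4 called, all higher, and a summed level of 1450 and 1465 CPM in low R/FR, against 1396 and 1366 CPM in high R/FR. Of these, 3 were weakly expressed copies. SRP54-A (AT1G15310) had 7.70 and 7.79 CPM in low R/FR cotyledons, against 5.55 and 4.98 CPM in high R/FR cotyledons (log2 0.56 ± 0.15, adjusted p = 0.0071, edgeR). Sec61 beta AT5G60460 had 3.66 and 2.97 CPM, against 2.03 and 2.09 CPM (log2 0.69 ± 0.22). TRAP alpha AT2G16595 had 1.33 and 1.11 CPM, against 0.705 and 0.571 CPM (log2 0.94 ± 0.31), from 32 and 25 counts in low R/FR and 16 and 15 counts in high R/FR. The remaining gene was SPC12 AT2G22425, with 24.3 and 24.3 CPM in low R/FR, against 19.8 and 18.1 CPM in high R/FR (log2 0.36 ± 0.09, adjusted p = 0.0053, edgeR). TOC64-V, in neither set, rose by log2 0.65 ± 0.21.

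All 6 genes that fell in cotyledons at 180 min were chloroplast genes. TOC64-III had 15.0 and 17.2 CPM in low R/FR cotyledons, against 22.1 and 23.6 CPM in high R/FR cotyledons (log2 -0.51 ± 0.10, adjusted p = 0.00035, edgeR). TOC33 (AT1G02280), a receptor GTPase, had 31.96 and 35.89 CPM in low R/FR, against 45.5 and 42.5 CPM in high R/FR (log2 -0.38 ± 0.10, adjusted p = 0.0088, edgeR). SECE1 fell by 0.32, cpSRP54 by 0.30, TOC159 by 0.27 and the channel gene TOC75-III by 0.26 on the log2 scale. The sum of the 17 genes was 1507 and 1606 CPM in low R/FR cotyledons, against 1740 and 1811 CPM in high R/FR cotyledons. Fewer than these 11 were called in every fit that left out 1 library, the fewest without low R/FR replicate 1. Calls over all genes dropped in these fits as well. SPC12 and SRP54-A lost their calls without high R/FR replicate 2 (adjusted p = 0.101 and 0.0983), when 0 ER and COPI genes were called, and TOC33 without high R/FR replicate 1 (0.0904) or low R/FR replicate 1 (0.143). A fit on cotyledon libraries alone gave 5 higher and 3 lower, where 3793 of 18770 genes were called. The authors' deposited table for this comparison has 2 ER and COPI genes higher, 3 chloroplast genes lower and TOC64-V higher.

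Among copies of 1 subunit, the size of the difference varied. In the hypocotyl at 180 min SRP54-A differed by log2 0.05 ± 0.13, Sec61 beta AT5G60460 by -0.23 ± 0.17, TRAP alpha AT2G16595 by -0.05 ± 0.20, SPC25 AT4G04200 by -0.05 ± 0.13 and SPC12 AT4G40042 by 0.00 ± 0.19. The main copies of the same subunits differed by 0.35 ± 0.07 for SRP54-C, 1.45 ± 0.12 for Sec61 beta AT2G45070, 1.52 ± 0.08 for TRAP alpha AT2G21160, 0.99 ± 0.08 for SPC25 AT2G39960 and 0.78 ± 0.09 for SPC12 AT2G22425. Other copies that were not the main one were higher in low R/FR: Sec61 beta AT3G60540 by 1.88 ± 0.37, Sec61 gamma AT5G50460 by 1.62 ± 0.10 and AT3G48570 by 1.13 ± 0.13, epsilon-COP AT2G34840 by 0.68 ± 0.14 and SRP54-B by 0.50 ± 0.15. The difference of log2 changes at 180 min, hypocotyl minus cotyledon, contains the same values and is a description too. It was past the threshold for 29 members as larger and 9 as smaller, where 46.5% of all genes were called (23.7% larger and 22.8% smaller), and was -0.51 for SRP54-A, -0.92 for Sec61 beta AT5G60460 and -0.99 for TRAP alpha AT2G16595. These copies are named because they share a subunit with a gene described above, after their values were seen. Coding identity between copies in these families ran from 63.8% between Sec61 beta AT3G60540 and AT5G60460 to 89.8% between SRP54-C and SRP54-A, so some reads of the closest pairs may be counted for the wrong copy.

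**Figure D4:**
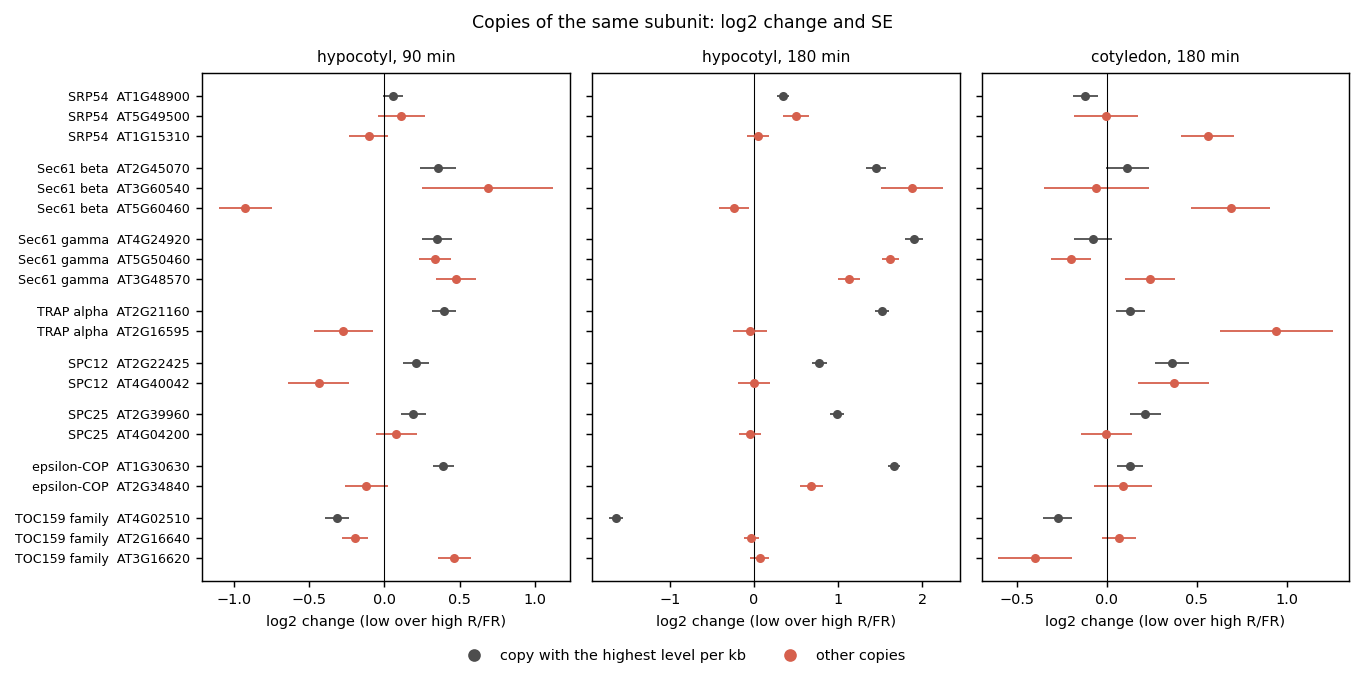
Log2 change (low over high R/FR, with SE bars) of the copies of each subunit in hypocotyls at 90 min, hypocotyls at 180 min and cotyledons at 180 min, in grey for the copy with the highest level per kb and in red for the others. At 180 min TRAP alpha AT2G21160 differed by 1.52 in hypocotyls and its copy AT2G16595 by -0.05, and AT2G16595 by 0.94 in cotyledons.

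Levels also changed with time in high R/FR alone, over the first hours of the day. In hypocotyls 15 members were higher and 12 lower at 180 min than at 0 min, where 44.9% of all genes were called (22% higher and 22.9% lower). These high R/FR libraries at 180 min are also those of the light comparison at that time. Of the ER and COPI genes 12 were higher and 2 lower, with a median log2 change of 0.21, and of the chloroplast genes 2 were higher and 9 lower, with a median of -0.25. TOC159 had the smallest p, with 175 and 167 CPM at 180 min, against 309 and 306 CPM at 0 min (log2 -0.84 ± 0.08, adjusted p = 1e-09, edgeR). TOC33, TOC64-III and TOC75-III fell by 0.91, 0.81 and 0.65 on the log2 scale. Among the ER genes SRP54-B rose by log2 0.88 ± 0.16 and SPC25 AT4G04200 by 0.84 ± 0.14.

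In cotyledons in high R/FR 14 members were higher and 17 lower at 180 min than at 0 min, where 55.6% of all genes were called (32.1% higher and 23.5% lower) and the median log2 change of all genes was 0.11. RLE scaling gave 8 higher and 22 lower, DESeq2 9 and 22, a fit on cotyledons alone 8 and 21, and no filter 8 and 19. The ER and COPI genes had a median of 0.02, with 10 higher and 8 lower, and the chloroplast genes a median of -0.31, with 3 higher and 8 lower. TOC33, TOC64-III and TOC75-III fell by 1.18, 1.12 and 1.03 on the log2 scale. TRAP alpha AT2G21160 fell by 0.89 (SE 0.08, adjusted p = 1.2e-10, edgeR), while SRP54-B rose by 1.17 ± 0.20 and SPC25 AT4G04200 by 1.099 ± 0.155.

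Between the organs in high R/FR, 15 members were higher and 28 lower in hypocotyls than in cotyledons over all times, where 80.2% of 19825 genes were called (40.8% higher and 39.4% lower). The chloroplast genes accounted for 13 of the lower calls and 3 of the higher ones, with a median log2 ratio of -0.94. CAO had a log2 ratio of -1.49 ± 0.05, cpFtsY, the receptor of the chloroplast SRP, -1.38 ± 0.04, and cpSRP54 -1.31 ± 0.04. TOC120 went the other way with 2.81 ± 0.08, and so did TOC132 and Tic20-IV with 0.70 each. TOC120 thus ranged from 19.7 to 26.7 CPM in high R/FR hypocotyls and from 2.09 to 3.82 CPM in high R/FR cotyledons. The ER and COPI genes had a median of -0.07, with 11 higher and 15 lower. The summed level of coatomer overlapped between the organs, with sums of 690 to 807 CPM in hypocotyls and 659 to 779 CPM in cotyledons. All 9 Sec61 and TRAP genes differed, 2 higher and 7 lower in hypocotyls. The 2 were the weak copies TRAP alpha AT2G16595 (log2 2.67 ± 0.11) and Sec61 beta AT5G60460 (1.86 ± 0.12), whereas Sec61 beta AT3G60540 was lower (-3.09 ± 0.20). SRP54-A (1.15 ± 0.08) and epsilon-COP AT2G34840 (0.76 ± 0.07) were also higher in hypocotyls.

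Other genes of the secretory route, taken from lists of ER chaperones, COPII and related coats, were tested in the same hypocotyls. At 90 min, when 37.6% of all genes were called (19.1% higher and 18.5% lower), 13 of 26 tested ER chaperone and unfolded protein response genes rose and 0 fell (median log2 0.23), 9 of 21 COPII and SAR1 genes rose and 0 fell (0.18), and 5 of 18 clathrin, ARF1 and p24 genes rose and 2 fell (0.11), with all genes at -0.02. BIP2 (AT5G42020), the ER Hsp70 chaperone, had 85.1 and 86.2 CPM in low R/FR hypocotyls at 90 min, against 57.5 and 53.7 CPM in high R/FR hypocotyls (log2 0.62, adjusted p = 4.8e-07, edgeR). SEC13A (AT2G30050), of the COPII coat that carries proteins out of the ER, had 39.6 and 37.3 CPM, against 25.2 and 24.1 CPM (log2 0.64, adjusted p = 2.3e-07, edgeR). Of 8 genes for the same complexes that the words of the rule missed, 5 rose. One of them, AT1G29310, encodes a SecY-family protein, the pore-forming alpha subunit of Sec61, and had 33.4 and 33.6 CPM in low R/FR, against 18.8 and 17.98 CPM in high R/FR (log2 0.86 ± 0.06, adjusted p = 3.1e-12, edgeR). These genes were named as examples after their values were seen. At 180 min, as a description, 22 of 26, 16 of 21, 15 of 18 and 7 of 8 were past the threshold as higher and 0 as lower, where 31.2% of all genes were higher and 32.6% lower. In cotyledons at 180 min the counts were 2 higher and 0 lower of 26, 1 and 1 of 21, 2 and 0 of 18, and 0 and 1 of 8, where 8.02% of all genes were higher and 11.5% lower. Of the 5 photosynthesis markers 2 fell in hypocotyls at 90 min (median log2 -0.14), and their part in these changes was not tested.

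**Figure D5:**
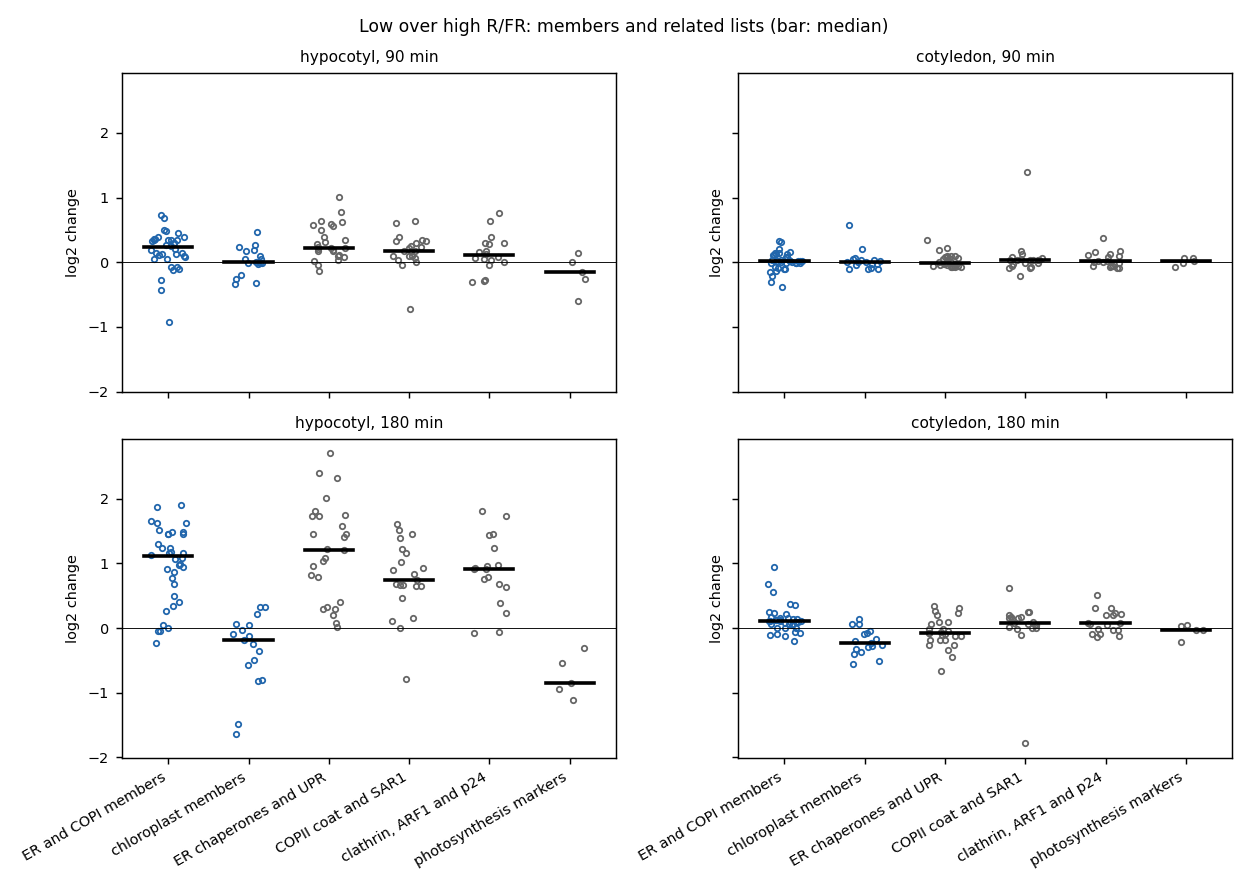
Log2 change of each member and of each gene of the related lists in 4 comparisons, 1 panel each, with a bar at the median. In hypocotyls at 90 min the medians were 0.23 for the 36 ER and COPI genes, 0.23 for ER chaperones and 0.18 for COPII, and 0.01 for the 17 chloroplast genes.

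The remaining members are TOC64-V and the pseudogene. TOC64-V had 3.82 and 3.56 CPM in low R/FR hypocotyls at 90 min, against 3.16 and 3.06 CPM in high R/FR (log2 0.25 ± 0.17, not called), and 7.38 and 6.65 CPM, against 2.78 and 3.24 CPM, at 180 min. The pseudogene AT1G23470 stayed between 1.12 and 1.64 CPM in the hypocotyl groups of 90 and 180 min, with no call for light at any time.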

How the data were processed

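The authors deposited whole-number read counts per gene for 36 libraries, and tables of log2 fold changes and p-values per gene for each organ and time. Per the submitters' processing notes, the tools were HTSeq 0.5.4p3 for which no setting is given, TopHat2 2.0.9 with Bowtie, cutadapt 1.2.1, limma 3.18.2 and edgeR 3.4.0, with the TAIR10 annotation; the labels describe stranded libraries. Here the counts were scaled by TMM and fitted with edgeR 4.0.16 (R 4.3.3, robust quasi-likelihood, 1 mean per group, 18 residual degrees of freedom) over 20126 genes that passed filterByExpr. The organ comparison used the 20 high R/FR libraries with time as a term. Summary lines of the count table (no feature, not unique and the like) stayed out of library sizes; reads in no gene amounted to 0.811% to 2.89%. A gene was called at an adjusted p under 0.05 over all genes tested.

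Groups came from the sample labels. The labels do not say whether equal replicate numbers share a plate, and the numbers were not taken as pairs: correlations of deviations were -0.03 to 0.07 over 5 pairs of light groups and 0.05 to 0.14 over 7 pairs of organs, 4 of them over 0.1. The members and all gene lists were chosen with earlier results of these data known. Named genes are, by rule, up to 3 with the highest mean CPM in each role, the up to 4 called genes of lowest p in each comparison, and in the hypocotyl at 180 min the 4 highest and 2 lowest changes. Further members were named after their values were seen, where they complete a short count or share a subunit with a named gene. Levels per kb used RefSeq exonic lengths, capped at the authors' gene span in 10 members. RefSeq and the authors' spans overlapped on the same chromosome for 20822 of 20823 genes. Alternatives were RLE scaling, no filter, DESeq2 1.42.0, a fit on the organ's own libraries, a replicate block and leaving out each library. The fit was tested on simulated counts.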

Additional observations from a re-analysis of the deposited data

Results flagged for a closer look

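At 90 min, 9 of the 55 members differed between the organs in their response to low R/FR by the interaction term of the edgeR fit. Of all genes 21.4% were called, so the share among members was not above that of all genes. The difference of log2 changes, hypocotyl minus cotyledon, was 0.81 for the signal peptidase subunit AT3G05230, 0.49 for Sec61 gamma AT5G50460 and 0.46 for beta-COP AT4G31490. It was 0.37 for alpha-COP AT1G62020, 0.36 for epsilon-COP AT1G30630, 0.34 for beta-prime-COP AT1G52360, 0.30 for alpha-COP AT2G21390 and 0.27 for beta-prime-COP AT3G15980. For TIC55-II (AT2G24820) it was -0.40. At 180 min the responses of 38 of the 55 members differed between the organs, 29 higher and 9 lower, where 46.5% of all genes were called. That comparison contains the hypocotyl one at 180 min, which was known when the set was made.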

How the results depend on the processing

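With no filter on low counts, 1 member was called in hypocotyls at 15 min in place of 0, and 5 differed between the organs at 90 min in place of 9. On cotyledon libraries alone, 0 were called at 90 min in place of 1. Leaving out 1 library at a time, the calls for light in hypocotyls were 0 to 4 at 15 min (0 with all libraries), 0 to 0 at 45 min (1), 11 to 18 at 90 min (20) and 38 to 39 at 180 min (41). In cotyledons they were 0 to 0 at 15 min (0), 0 to 8 at 45 min (0), 0 to 1 at 90 min (1) and 3 to 8 at 180 min (11). Differences between the organs were 0 to 0 at 15 min (0), 0 to 2 at 45 min (0), 4 to 7 at 90 min (9) and 33 to 36 at 180 min (38). Between 180 and 0 min in high R/FR the calls were 19 to 21 in hypocotyls (27) and 22 to 26 in cotyledons (31), and between the organs 41 to 46 (43). Leaving out a library leaves 1 in its group, which is assumed to vary like the other groups. Calls over all genes also moved in these fits, so the member counts alone do not say that members changed more than other genes. With the replicate block, calls were 21 in hypocotyls at 90 min, 12 in cotyledons at 180 min, 11 and 39 between organ responses at 90 and 180 min, 25 between times in hypocotyls and 44 between organs, and as reported elsewhere. Single genes were followed under the alternatives only in the comparisons where the rule named them, for a small p or an extreme change. Of these values, 391 kept their direction and their side of the threshold, 17 kept the direction and lost the call, and 0 changed sign. Genes chosen in this way were already called and far from no change, so these counts do not speak for the other members. The alternatives use fewer libraries, other genes, another scaling or another model, and the cause of these changes was not tested. Without 1 hypocotyl library the median log2 change of all genes for light in hypocotyls moved too. It was -0.039 to -0.062 at 90 min, against -0.016 with all libraries, and -0.127 to -0.152 at 180 min, against -0.039. Sec61 beta AT3G60540 had the fewest reads of all members, 1029 over the 36 libraries.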
